A study of Mus musculus with 12 samples.

Results

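The 10 genes described here make NAD, phosphorylate it, move electrons between its reduced forms or spend it as a substrate, and were measured in whole hearts of mice with and without the NADH-dependent reductase CYB5R3 in cardiomyocytes. They were chosen by name, not by a measured value, as Nampt, Nmnat1, Nmnat3, Nmrk1, Nmrk2, Nadk, Nadk2, Nnt, Sirt1 and Sirt3, and all 10 were found among the 53700 genes of the count table. All 10 passed the filter on low counts that left 17847 genes for testing.

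NAD carries electrons as NADH between fuel oxidation and the respiratory chain. Its phosphorylated form NADPH feeds antioxidant and biosynthetic reactions. In heart muscle NAD is mostly rebuilt from nicotinamide by the salvage route, in which NAMPT makes nicotinamide mononucleotide and the NMNAT enzymes join it to an adenylate to give NAD. The kinases NMRK1 and NMRK2 start from nicotinamide riboside instead, NAD kinases make NADP, the transhydrogenase NNT of the inner mitochondrial membrane uses the proton gradient to pass electrons from NADH to NADP, and sirtuins consume NAD as they remove acyl groups from proteins. CYB5R3, cytochrome b5 reductase 3, is a flavoprotein that takes electrons from NADH.

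RNA from whole hearts of 6 ac-WT mice (CYB5R3wt/wt, Myh6-CreERT2) and 6 ac-CYB5R3-KO mice (CYB5R3fl/fl, Myh6-CreERT2) was sequenced. Both groups carried the Cre transgene, which is driven by a cardiomyocyte promoter and is active after tamoxifen, and both were injected with tamoxifen (33 mg/kg/d) on 5 days, starting at an age of 10 to 13 weeks, with hearts taken 5 days after treatment. Non-myocytes of the knockout hearts therefore keep their Cyb5r3 alleles. The line came from a mixed FVB and C57BL/6 stock that was backcrossed into C57BL/6J, and the labels give no strain for single mice.

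Total counts were between 43393183 and 53754284 per library. Levels are given as CPM, the counts of a gene relative to its library's total after scaling by the trimmed mean of M-values (TMM), and differences as log2 fold changes of ac-CYB5R3-KO over ac-WT with their standard errors from the quasi-likelihood test of edgeR. Cyb5r3 itself had means of 126 ± 38.4 CPM in ac-WT and 53.7 ± 9.07 CPM in ac-CYB5R3-KO hearts (SD, n = 6 each), and its log2 fold change was -1.22 ± 0.19 (SE, adjusted p = 0.0450, edgeR). With total counts in place of TMM its adjusted p was 0.315. The libraries of ac-WT mice 2 and 3 had TMM factors of 0.570 and 0.723, against 1.04 to 1.22 in ac-CYB5R3-KO hearts. In the same 2 libraries the summed level of 8 fibroblast markers was 1560 and 1755 CPM, where the remaining ac-WT libraries had 5122 to 9686 CPM. That of 10 cardiomyocyte markers was 55802 and 44155 CPM, beside 24449 to 27686 CPM. Summed red cell markers were between 220 and 4465 CPM in ac-WT hearts and between 1317 and 12171 CPM after the knockout, and summed cartilage and airway markers, low throughout, were 5.52 to 52.5 CPM and 70.6 to 151 CPM. Most of this last sum was Comp (means of 16.2 and 73.5 CPM), Col11a1 (4.18 and 27.2 CPM) and Col9a2 (8.25 and 25.1 CPM). The airway genes Scgb1a1 and Foxj1 did not pass the filter on low counts. The part of these shifts in the values below was not tested, and in whole hearts fewer cells of a type cannot be told apart from less RNA per cell.

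None of the 10 genes differed between the groups after adjustment over all genes, where the lowest adjusted p was 0.186, and 18 of the 17847 genes did (0.101%, edgeR with Benjamini-Hochberg adjustment). At an unadjusted p under 0.05, 2 of the 10 were lower in ac-CYB5R3-KO hearts, Nnt and Nmnat1, against 14.6% of all genes in either direction, 9.73% lower and 4.91% higher. Log2 fold changes were below 0 for 8 of the 10 genes and above 0 for Nmrk1 and Nmrk2, with a median of -0.19 beside -0.01 over all genes tested. When library sizes were set by total counts in place of TMM, 2 of the 10 stood below 0, Nnt and Nmnat1, and the median of all genes moved to 0.26 while that of the 10 genes moved to 0.10, a difference of -0.16. Without ac-WT mice 2 and 3 the median of the 10 genes was -0.07, beside 0.02 over all genes.

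**Figure D1:**
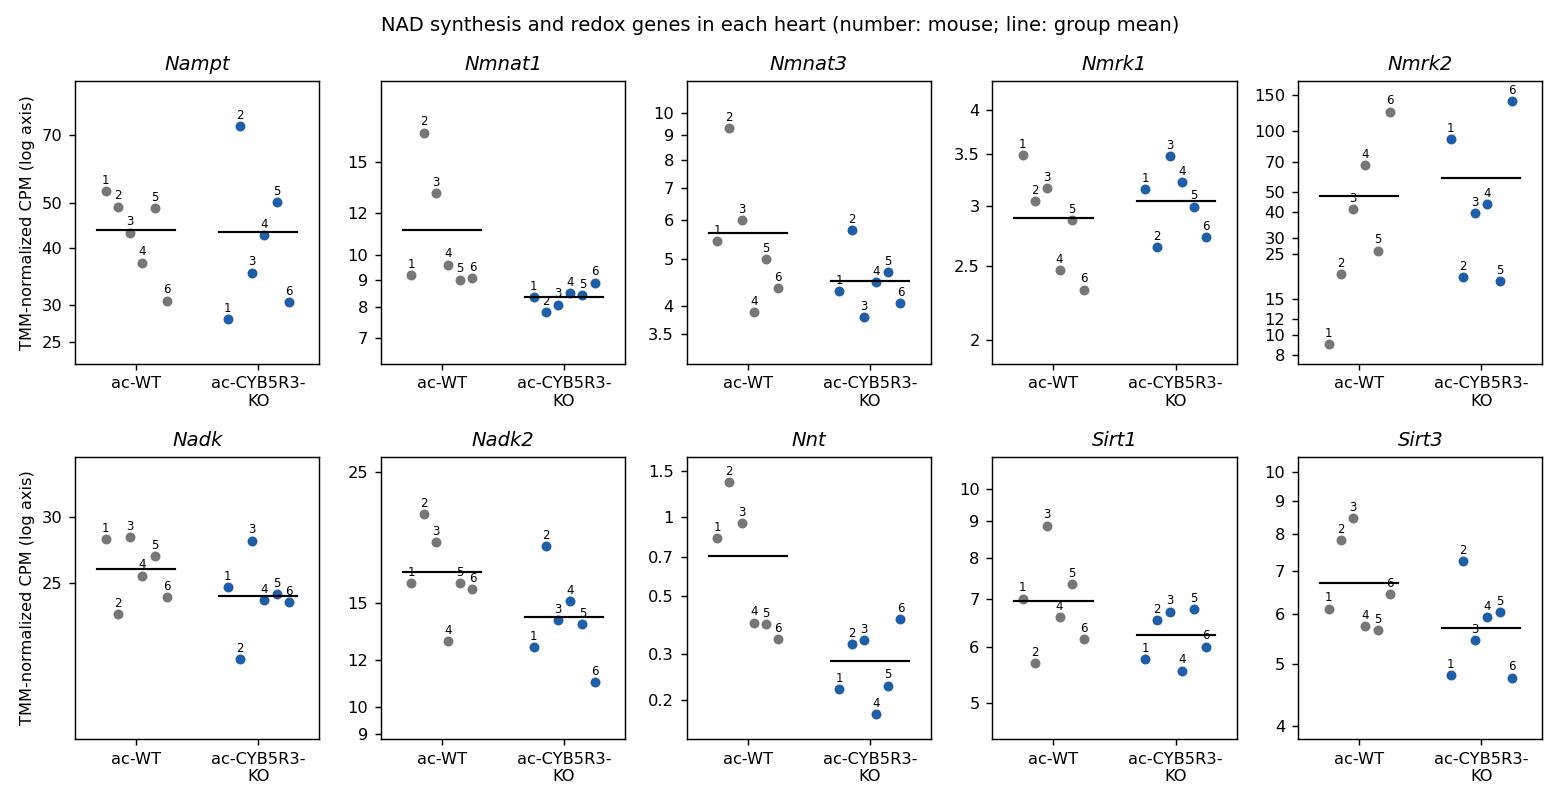
TMM-normalized CPM (log axis, a separate scale for each gene) of the 10 genes in 6 ac-WT hearts (grey) and 6 ac-CYB5R3-KO hearts (blue). Each point is a heart with its mouse number and each line a group mean. On this scale the groups stand apart only for Nmnat1, which overlaps with total counts, and Nmrk2 has the widest spread within both groups.

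The genes were expressed at very different levels. Per kilobase of exon, the mean in ac-WT hearts was highest for Nmrk2, at 26.2 ± 23.1 CPM per kilobase (SD, n = 6), followed by Nampt at 9.60, Nadk at 6.06, Nadk2 at 4.52, Sirt3 at 4.27 and Nmnat1 at 3.67. Sirt1 at 1.30, Nmnat3 at 1.11 and Nmrk1 at 0.865 CPM per kilobase were lower, and Nnt was the lowest at 0.0905 ± 0.0520 CPM per kilobase. Among the 15527 tested genes with a known exon length, these values put Nmrk2 at the 91.0th percentile and Nnt at the 1.10th. Of neighbours in this order, Nampt and Nadk, Nmnat1 and Sirt1, and Nmrk1 and Nnt did not overlap across the 6 ac-WT hearts, and the other neighbours did.

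Promoter sequences were available for 8 of the 10 genes. They are shown for Nmrk2, the most variable of the 10, for Nampt, the entry enzyme of salvage, and for Nmnat1, the gene whose groups stood apart. Each holds 250 bases before and 50 after the transcript start, from RefSeq on GRCm38.p6, 5′ to 3′ in the direction of the gene. Capitals mark matches to the motifs searched on both strands, the E-box CACGTG, the nuclear receptor core AGGTCA, the core of the cAMP response element TGACG and the TATA box TATAAA.
Nmrk2, chr10:81201988-81202287, minus strand: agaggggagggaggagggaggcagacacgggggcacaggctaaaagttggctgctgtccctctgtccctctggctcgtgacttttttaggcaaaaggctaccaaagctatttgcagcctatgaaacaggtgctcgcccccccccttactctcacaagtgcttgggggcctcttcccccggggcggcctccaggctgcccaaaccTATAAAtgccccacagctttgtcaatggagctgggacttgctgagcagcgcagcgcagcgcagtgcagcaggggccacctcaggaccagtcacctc
Nampt, chr12:32820085-32820384, plus strand: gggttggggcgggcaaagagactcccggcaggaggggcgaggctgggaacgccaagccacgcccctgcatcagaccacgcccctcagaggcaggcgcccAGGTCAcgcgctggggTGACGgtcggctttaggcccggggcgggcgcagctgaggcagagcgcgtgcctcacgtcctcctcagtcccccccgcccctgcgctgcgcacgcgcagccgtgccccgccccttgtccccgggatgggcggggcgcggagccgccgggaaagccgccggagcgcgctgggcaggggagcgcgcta
Nmnat1, chr4:149485161-149485460, minus strand: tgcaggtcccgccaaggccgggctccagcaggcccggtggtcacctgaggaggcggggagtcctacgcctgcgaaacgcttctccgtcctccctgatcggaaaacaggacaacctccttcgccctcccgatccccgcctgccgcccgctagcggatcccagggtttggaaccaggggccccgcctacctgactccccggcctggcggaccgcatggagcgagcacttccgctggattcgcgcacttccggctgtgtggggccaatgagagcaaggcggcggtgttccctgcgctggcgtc

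The Nmrk2 promoter held 8 CG dinucleotides at a GC content of 60.7%, the Nampt promoter 36 at 76.3% and the Nmnat1 promoter shown 28 at 69.0%. A second Nmnat1 promoter, not shown, had a GC content of 67.7%. The median GC content of all 32851 promoters was 52.7%. Nmrk2 was the 1 of the 8 genes with a TATA box match, which 13.6% of all promoters hold. Matches to CACGTG were found for 2 of the 8, Sirt1 and Nadk (7.15% of all promoters), to AGGTCA for 2, Nampt and Nmnat3 (16.3%), and to TGACG for 3, Nampt, Sirt1 and Sirt3 (20.8%). A gene was counted when any of its promoters matched, whereas the shares are over single promoters, so the units differ. Nmnat1, Nadk and Sirt3 had 2 promoters each, and for Nadk and Sirt3 the match was in 1 of the 2. These are matches of letters only.

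Nampt, the enzyme that sets the pace of NAD salvage from nicotinamide, had nearly the same mean level in both groups. In ac-WT hearts it ran from 30.7 to 53.1 CPM with a median of 45.9 CPM, and in ac-CYB5R3-KO hearts between 28.0 and 73.5 CPM with a median of 38.9 CPM. The groups overlapped almost fully, and the highest heart of all was ac-CYB5R3-KO mouse 2. The means were 43.6 ± 8.44 and 43.3 ± 16.9 CPM (SD, n = 6 each), and the ratio of ac-CYB5R3-KO to ac-WT was 0.993 with a 95% confidence interval from 0.715 to 1.38 (adjusted p = 0.988, edgeR). Its direction was not stable, since the log2 fold change of -0.01 ran from -0.23 without ac-CYB5R3-KO mouse 2 to 0.09 without ac-CYB5R3-KO mouse 1, and was 0.27 with total counts.

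Nmnat1, the nuclear enzyme of the last step to NAD, was lower in every ac-CYB5R3-KO heart than in any ac-WT heart on the TMM scale. Levels in ac-WT mice 1 to 6 were 9.18, 17, 13.1, 9.61, 9.01 and 9.06 CPM, and those in ac-CYB5R3-KO mice 1 to 6 were 8.35, 7.83, 8.09, 8.51, 8.42 and 8.89 CPM. On this scale the ac-CYB5R3-KO hearts were tightly grouped, with a coefficient of variation of 4.39% against 29.3% in ac-WT hearts, where mice 2 and 3 stood high. Raw counts in ac-WT hearts were 440 to 487. The log2 fold change was -0.41 ± 0.16 (SE), a ratio of 0.750 with a 95% confidence interval from 0.595 to 0.946 (p = 0.0187, adjusted p = 0.253, edgeR; exact permutation p = 0.00216, two-sided, the smallest that the placements of 12 mice into groups of 6 can give). Groups that did not overlap were found for 1.55% of all genes tested, and for 1 of these 10.

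The size of the Nmnat1 difference rested on ac-WT mice 2 and 3. Without mouse 2 alone the log2 fold change was -0.24. Without both libraries the log2 fold change was -0.13 ± 0.08 (SE, p = 0.113, adjusted p = 0.721, edgeR), and with total counts on all 12 hearts it was -0.07 ± 0.13 (SE, adjusted p = 0.734), with overlapping groups (exact permutation p = 0.128). On the TMM scale Nmnat1 lay between 9.01 and 9.61 CPM in the 4 other ac-WT hearts, above the highest ac-CYB5R3-KO heart at 8.89 CPM. With total counts the means were 9.74 ± 0.423 CPM in ac-WT and 9.27 ± 0.531 CPM in ac-CYB5R3-KO hearts (SD). There ac-WT mice 2 and 3 had 9.69 and 9.45 CPM, inside the ac-WT range of 9.06 to 10.1 CPM, so the wider ac-WT spread was seen with TMM only.

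Nmnat3, the mitochondrial member of the same enzyme family, had overlapping groups. Levels ran from 3.88 to 9.33 CPM in ac-WT hearts with a median of 5.21 CPM, and between 3.79 and 5.74 CPM in ac-CYB5R3-KO hearts with a median of 4.38 CPM. On the TMM scale the highest heart in each group was mouse 2. With total counts ac-WT mouse 5 stood highest in its group at 5.62 CPM, against 5.31 CPM in ac-WT mouse 2. With TMM the log2 fold change was -0.32 ± 0.19 (SE, 95% confidence interval -0.74 to 0.09, adjusted p = 0.455, edgeR), and without ac-WT mice 2 and 3 it was -0.03 ± 0.14 (SE).

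The kinases of nicotinamide riboside differed from each other in how much they varied. Nmrk1, the widely expressed form, kept between 2.33 and 3.49 CPM in ac-WT and between 2.65 and 3.48 CPM in ac-CYB5R3-KO hearts, with medians of 2.95 and 3.07 CPM. Its log2 fold change was 0.07 ± 0.13 (SE, 95% confidence interval -0.21 to 0.36, adjusted p = 0.825, edgeR). With total counts it was 0.35 ± 0.20 (SE, adjusted p = 0.410), beside the median of 0.26 over all genes under that scaling.

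Nmrk2, the muscle form of the kinase, was the gene of the 10 that varied most from heart to heart. Levels in ac-WT mice 1 to 6 were 9.10, 19.9, 41.5, 68.2, 26.0 and 124 CPM, and those in ac-CYB5R3-KO mice 1 to 6 were 91.2, 19.3, 39.7, 43.8, 18.5 and 140 CPM. The highest heart exceeded the lowest by 13.6-fold within ac-WT and by 7.58-fold within ac-CYB5R3-KO, and the groups overlapped almost fully. The coefficient of variation was 88.3% and 81.4%, against 8.67% and 10.4% for Nadk. With means of 48.1 ± 42.5 and 58.8 ± 47.9 CPM (SD, n = 6 each), the log2 fold change was 0.29 ± 0.61 (SE, adjusted p = 0.847, edgeR). The 95% confidence interval of the ratio ran from 0.491 to 3.04, so that a decrease to 0.491 and an increase to 3.04 of the ac-WT level were both inside it. Leaving out single mice moved the log2 fold change from -0.18 without ac-CYB5R3-KO mouse 6 to 0.84 without ac-WT mouse 6.

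Across the 12 hearts, after the mean of its group was taken from each, the genes whose log2(CPM + 1) followed Nmrk2 most closely were Fads3 (Pearson r = 0.977), Nacad (0.966), Eno1 (0.959), Gm5506 (0.955) and Nme1 (0.954). Eno1 encodes the glycolytic enzyme enolase 1, and Gm5506 is a near copy of it with which it may share reads. Eno1 itself ran from 111 CPM in the lowest to 242 CPM in the highest heart. These r values are the highest among the tested genes that have a symbol. They describe the 12 hearts only, which share library depth and the marker shifts given above.

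The NAD kinases, which make NADP, were close in the groups. Nadk, the cytosolic kinase, ran from 22.9 to 28.4 CPM in ac-WT hearts with a median of 26.2 CPM, and between 20.2 and 28.1 CPM in ac-CYB5R3-KO hearts with a median of 24.0 CPM. On the TMM scale Nadk was the steadiest of the 10 within the ac-WT group. That rank did not hold with total counts, where the ac-WT means were 24.1 ± 6.32 CPM for Nadk and 9.74 ± 0.423 CPM for Nmnat1 (SD). With TMM the log2 fold change of Nadk was -0.11 ± 0.09 (SE, 95% confidence interval -0.31 to 0.09, adjusted p = 0.606, edgeR). Nadk2, the mitochondrial kinase, ran from 12.9 to 21.2 CPM in ac-WT and between 11.0 and 18.7 CPM in ac-CYB5R3-KO hearts, with medians of 16.2 and 13.9 CPM. Its log2 fold change was -0.25 ± 0.14 (SE, 95% confidence interval -0.55 to 0.05, adjusted p = 0.428, edgeR), and -0.09 ± 0.14 (SE) without ac-WT mice 2 and 3. With total counts both kinases stood above 0, at 0.16 for Nadk and 0.06 for Nadk2, below the median of all genes.

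The NAD-dependent deacylases Sirt1, which acts in nucleus and cytosol, and Sirt3, the main mitochondrial deacetylase, overlapped between the groups as well. Sirt1 ran from 5.69 to 8.88 CPM in ac-WT hearts with a median of 6.80 CPM, and between 5.55 and 6.78 CPM in ac-CYB5R3-KO hearts with a median of 6.27 CPM. Its log2 fold change was -0.16 ± 0.12 (SE, 95% confidence interval -0.41 to 0.09, adjusted p = 0.542, edgeR). Sirt3 ran from 5.65 to 8.46 CPM in ac-WT and between 4.76 and 7.26 CPM in ac-CYB5R3-KO hearts, with medians of 6.27 and 5.68 CPM. Its log2 fold change was -0.23 ± 0.14 (SE, 95% confidence interval -0.53 to 0.07, adjusted p = 0.464, edgeR) and -0.05 ± 0.13 (SE) without ac-WT mice 2 and 3. For both genes the highest heart on the TMM scale was ac-WT mouse 3. With total counts it was ac-WT mouse 5 for Sirt1 (8.27 CPM) and ac-CYB5R3-KO mouse 2 for Sirt3 (8.17 CPM).

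On the TMM scale, mice 1, 2 and 3 held the highest level of 9 of the 10 genes among the ac-WT hearts. Mouse 2 was highest for 4, mouse 3 for 3 and mouse 1 for 2, and mouse 6 was highest for Nmrk2. Among the ac-CYB5R3-KO hearts, mouse 2 was highest for 4 and mouse 6 for 3 of the 10 on that scale. With total counts, ac-WT mouse 1 was highest in its group for Nmrk1 and Nnt only. There ac-WT mouse 5 was highest for Nampt, Nmnat3, Nadk, Nadk2 and Sirt1, and ac-WT mouse 6 for Nmrk2 and Sirt3.

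**Figure D2:**
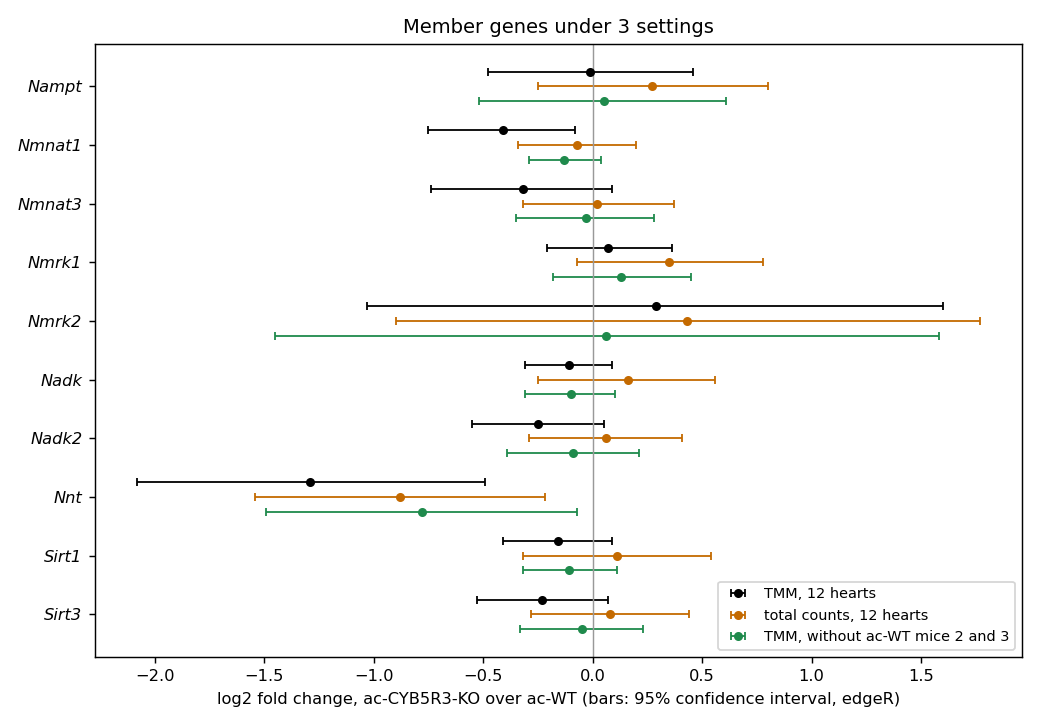
Log2 fold change of ac-CYB5R3-KO over ac-WT hearts for the 10 genes (x axis; points, edgeR estimates; bars, 95% confidence intervals) with TMM on 12 hearts (black), with total counts on 12 hearts (orange) and with TMM without ac-WT mice 2 and 3 (green). Only the Nnt interval stays below 0 in all 3 settings, at -1.29, -0.88 and -0.78, and the Nmnat1 interval does so with TMM on 12 hearts alone.

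Nnt, the transhydrogenase, had the largest difference of the 10, on very low counts. Raw counts in ac-WT mice 1 to 6 were 44, 39, 34, 19, 19 and 18, and those in ac-CYB5R3-KO mice 1 to 6 were 11, 19, 20, 9, 12 and 20. As CPM these were 0.829, 1.36, 0.944, 0.394, 0.389 and 0.341 in ac-WT, and 0.219, 0.327, 0.338, 0.176, 0.226 and 0.407 in ac-CYB5R3-KO hearts. The 3 high hearts were all ac-WT, and the other 3 ac-WT hearts lay within the range of the ac-CYB5R3-KO hearts. Summed leukocyte and fibroblast markers were lower in the same 3 ac-WT hearts than in the other 3. Summed leukocyte markers were 416, 254 and 300 CPM in ac-WT mice 1, 2 and 3 and 1035 to 1156 CPM in mice 4 to 6, and summed fibroblast markers 5122, 1560 and 1755 CPM and 7808 to 9686 CPM. Not every gene followed its sum, as Dcn was 767 CPM in ac-WT mouse 1 and 587 and 586 CPM in ac-WT mice 4 and 6. Summed cardiomyocyte markers were 27686, 55802 and 44155 CPM in ac-WT mice 1, 2 and 3 and 24449 to 27287 CPM in mice 4 to 6. In this list mouse 1 thus lay close to mice 4 to 6. The ac-CYB5R3-KO hearts had 408 to 747 CPM of leukocyte markers and 5083 to 7941 CPM of fibroblast markers. The part of these differences in the Nnt level was not tested. The log2 fold change was -1.29 ± 0.37 (SE), a ratio of 0.409 with a 95% confidence interval from 0.236 to 0.710 (p = 0.00372, adjusted p = 0.186, edgeR; exact permutation p = 0.0152, two-sided). DESeq2 gave an adjusted p of 0.0441, and Nnt stayed lower under every alternative in which it was tested. Without ac-WT mice 2 and 3 the log2 fold change was -0.78 ± 0.33 (SE, adjusted p = 0.584, edgeR, unadjusted p under 0.05), and with total counts it was -0.88 ± 0.31 (SE, adjusted p = 0.410).

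Mice of the C57BL/6J strain carry an Nnt allele that lacks several exons and gives no functional transhydrogenase, while C57BL/6N and FVB mice carry the intact gene, so hearts of a mixed stock could differ in this gene by descent. Ordered by level, Nnt had its widest gap between 0.407 and 0.829 CPM, a ratio of 2.04, with 9 hearts below and ac-WT mice 1, 2 and 3 above. All 12 hearts stayed at or under 44 counts. The counts thus formed no class of hearts with high expression, and they do not assign an allele to any mouse. The reference genome is that of C57BL/6J, which lacks the deleted exons, the table holds 1 count per gene, and the expression of single exons was not analysed here.

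Genes known to vary between C57BL/6 substrains did not divide the hearts in the way Nnt did. Wdfy1, an endosomal adaptor, was 7.22 and 7.27 CPM in ac-WT mice 1 and 2 and between 17.4 and 23.4 CPM in the other 10 hearts, a gap of 2.39-fold. Mouse 3, which was high for Nnt, had 20.4 CPM of Wdfy1. Entpd4, a Golgi nucleotidase, had its widest gap, a ratio of 1.28, below ac-CYB5R3-KO mouse 2 at 7.70 CPM, and a log2 fold change of 0.41 (adjusted p = 0.379, edgeR). Ide, the insulin-degrading enzyme, was between 49.5 and 73.9 CPM in ac-WT and between 33.7 and 40.1 CPM in ac-CYB5R3-KO hearts, with no overlap, and differed by -0.64 ± 0.11 on the log2 scale (SE, adjusted p = 0.0476, edgeR; exact permutation p = 0.00216). With total counts the Ide groups overlapped (exact permutation p = 0.0238) and the log2 fold change was -0.35 ± 0.14 (SE, adjusted p = 0.410, edgeR). With TMM but without ac-WT mice 2 and 3 it was -0.53 ± 0.08 (SE, adjusted p = 0.0631, edgeR).

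**Figure D3:**
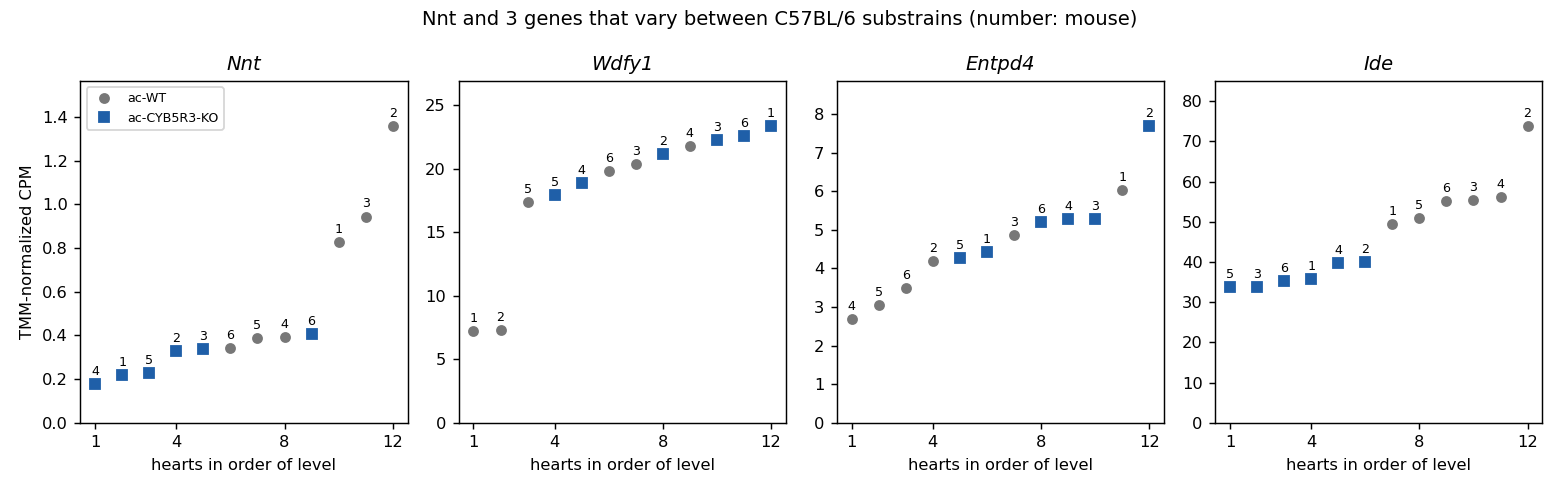
TMM-normalized CPM (linear axis from 0) of Nnt and of Wdfy1, Entpd4 and Ide, with the 12 hearts in order of level from left to right, numbered by mouse (grey circles, ac-WT; blue squares, ac-CYB5R3-KO). Nnt sets ac-WT mice 1, 2 and 3 above the other 9 hearts, and Wdfy1 sets ac-WT mice 1 and 2 below the other 10. On this scale Ide divides the hearts by group, and with total counts its groups overlap.

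Of the tested genes with a symbol, those that followed Nnt most closely over the 12 hearts, by the same measure as for Nmrk2, were Hist2h2be (Pearson r = 0.961), Cpa3 (0.950), Abcb4 (0.943), Lrrc15 (0.942) and Gkn3 (0.942). Cpa3, a mast cell carboxypeptidase, ran from 0.0392 to 1.01 CPM and Gkn3 from 0.0569 to 0.629 CPM, levels as low as those of Nnt. Lrrc15 ran from 0.235 to 5.14 CPM, while Hist2h2be (2.91 to 6.18 CPM) and Abcb4 (3.89 to 11.4 CPM) stood higher than Nnt throughout.

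Of 78 further genes of NAD metabolism in 8 lists, 71 were tested. After adjustment none differed (lowest adjusted p = 0.173, edgeR), and at an unadjusted p under 0.05 there were 11, of which 9 stood lower and 2 higher in the knockout, which is 15.5% beside 14.6% of all genes. The median log2 fold change over the 71 was -0.08, with 40 below and 31 above 0.

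Upstream of NAD, 1 of 7 tested precursor and salvage genes had an unadjusted p under 0.05. This was Naprt, which starts NAD synthesis from nicotinic acid, with 9.70 ± 2.59 CPM in ac-WT and 6.84 ± 0.757 CPM in ac-CYB5R3-KO hearts (SD, n = 6 each; log2 fold change -0.50, adjusted p = 0.206, edgeR). It was -0.18 with total counts and -0.29 without ac-WT mice 2 and 3. Of the 9 genes of synthesis from tryptophan, 4 passed the filter, none had an unadjusted p under 0.05, and their summed level was 2.73 to 4.46 CPM in ac-WT and 2.84 to 4.21 CPM in ac-CYB5R3-KO hearts.

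Among genes that spend NAD, 1 of 5 other sirtuins and 2 of 15 other consumers had an unadjusted p under 0.05. Sirt5, a mitochondrial desuccinylase, had a log2 fold change of -0.41 (adjusted p = 0.230, edgeR), with medians of 15.6 CPM in ac-WT and 13.4 CPM in ac-CYB5R3-KO hearts. Parp6, a mono-ADP-ribosyltransferase, stood at -0.36 (adjusted p = 0.325) and Tnks, the poly-ADP-ribosyltransferase tankyrase, at 0.34 (adjusted p = 0.274). In the list of NADP and NADH turnover and repair, Noct, a phosphatase of NADP and NADPH, had a log2 fold change of -0.58 (adjusted p = 0.224), 1 of 5 with an unadjusted p under 0.05. With total counts Sirt5 was -0.08, Parp6 -0.02, Noct -0.31 and Tnks 0.55, and without ac-WT mouse 2 alone Sirt5 was -0.27.

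Of the 15 enzymes that supply NADPH, 4 had an unadjusted p under 0.05, 1 higher and 3 lower. Mthfd2, a mitochondrial folate enzyme that can use NAD or NADP, was the 1 gene of the 71 whose groups did not overlap, beside 1.55% of all genes tested. It ran from 2.91 to 7.66 CPM in ac-WT hearts with a median of 5.42 CPM and between 7.78 and 9.75 CPM in ac-CYB5R3-KO hearts with a median of 8.35 CPM. Its log2 fold change was 0.75 ± 0.20 (SE, adjusted p = 0.173, edgeR; exact permutation p = 0.00216), and DESeq2 gave an adjusted p of 0.0265. The groups were also apart with total counts (log2 fold change 0.93 ± 0.31, SE), and without ac-WT mice 2 and 3 the log2 fold change was 0.52 ± 0.13 (SE, adjusted p = 0.251). The lower genes were Idh2, the mitochondrial NADP-dependent isocitrate dehydrogenase, at 544 ± 245 CPM in ac-WT and 340 ± 72.7 CPM in ac-CYB5R3-KO hearts (SD, n = 6 each; log2 fold change -0.68, adjusted p = 0.250), and the formyltetrahydrofolate dehydrogenases Aldh1l1 (-0.52) and Aldh1l2 (-0.63). Idh2 stood at -0.41 without ac-WT mouse 2 alone, at -0.26 without ac-WT mice 2 and 3 and at -0.29 with total counts, where Aldh1l1 was -0.22 and Aldh1l2 -0.40.

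In the 13 genes of NADH shuttles and lactate dehydrogenases, 10 log2 fold changes were below 0 and 2 had an unadjusted p under 0.05, both in the malate-aspartate shuttle that carries NADH electrons into mitochondria. Slc25a11, the malate carrier, was -0.49 (adjusted p = 0.249, edgeR) and Got2, the mitochondrial aspartate aminotransferase, was -0.45 (adjusted p = 0.292). Without ac-WT mouse 2 alone these were -0.29 for Slc25a11 and -0.24 for Got2, and with total counts -0.14 and -0.10. The list's median was -0.29, and 5 of the 10 cardiomyocyte markers were also lower at an unadjusted p under 0.05, with a median of -0.49. None of 7 quinone and flavin reductases had an unadjusted p under 0.05.

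Without ac-WT mice 2 and 3, 6 rather than 11 genes of these lists had an unadjusted p under 0.05, and the share over all genes went from 14.6% to 7.98%.

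**Figure D4:**
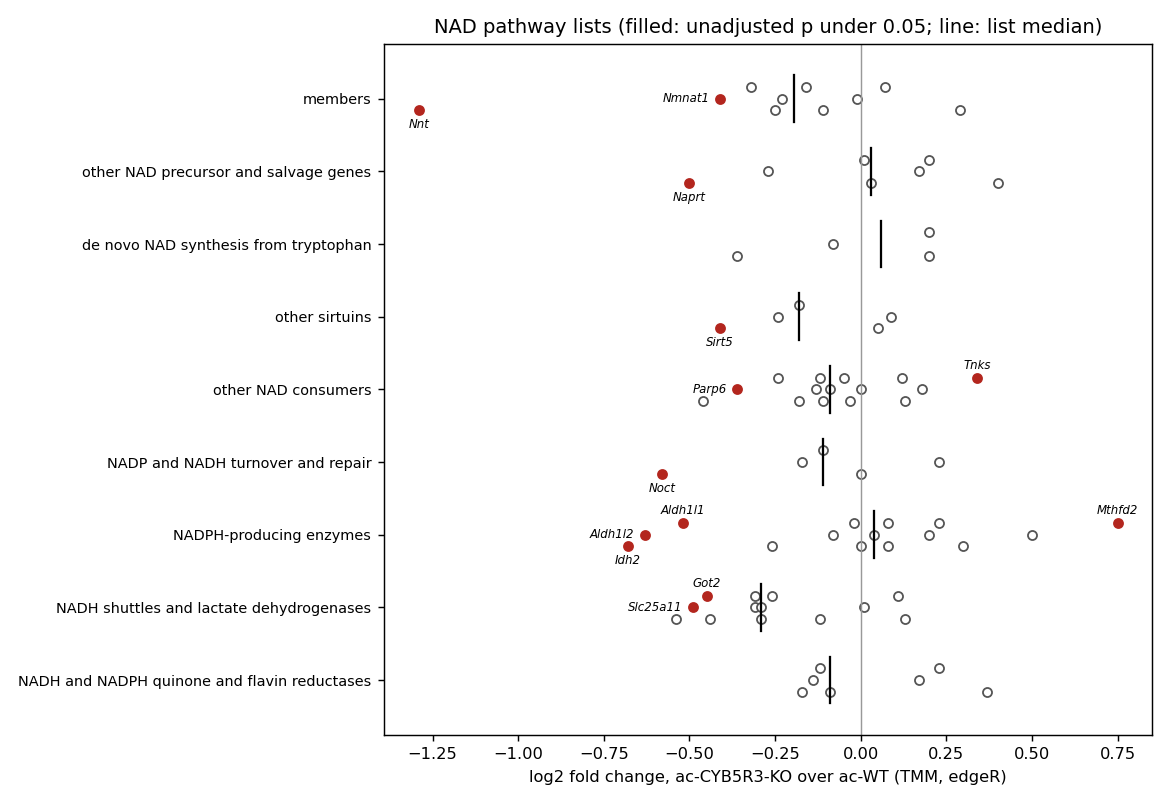
Log2 fold change of ac-CYB5R3-KO over ac-WT hearts (x axis, edgeR with TMM) for the 10 genes (row "members") and for 71 further tested genes of NAD metabolism in 8 lists. Each point is a gene, filled points have an unadjusted p under 0.05 and carry their names, and the vertical lines are list medians. Nnt lies farthest to the left at -1.29 and Mthfd2 farthest to the right at 0.75.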

How the data were processed

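Frozen heart tissue was processed for total RNA, libraries were made with a stranded total RNA kit, and unpaired reads were sequenced. The authors deposited raw counts per Ensembl gene, not normalized. The submitters' processing notes name STAR, featureCounts and GRCm39, whereas the methods of the study describe mapping to mm9 and FPKM values, so the build behind the counts is uncertain and the strand setting is not given in the sources used here. Symbols for 31027 of 53700 identifiers (57.8%), and exon lengths, came from GENCODE on NCBIM37. Nmrk1 and Nadk2 carry older symbols there. No gene coordinates are therefore given, and promoters are RefSeq sequences on GRCm38.p6.

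Genes were filtered with filterByExpr (minimum count 10) of edgeR (version 4.0.16, R 4.3.3). After TMM scaling the two-sided quasi-likelihood test was run, 6 against 6 hearts, without covariates, with Benjamini-Hochberg adjustment over 17847 genes. Confidence intervals (95%) use the standard errors of that fit. Single genes were also compared by an exact permutation test of CPM over every placement of the 12 mice into groups of 6. Likeness of genes used Pearson's r of log2(CPM + 1), with a pseudocount of 1, after centring within groups, among tested genes with a symbol. The labels call the samples separate mice. Libraries held 43393183 to 53754284 counts, and counting error adds to the spread between mice, most for low genes. The reads carried no molecular identifiers.

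The counts of genes, the median and the log2 fold changes of named genes, other than the genes most like Nnt and Nmrk2, were recomputed with total counts, DESeq2 size factors, DESeq2 (1.42.0), limma-voom (3.58.1), no filter, at least 10 counts in every library, a replicate block, leaving out each heart, and leaving out ac-WT mice 2 and 3. Named genes were the 10 genes, up to 5 genes per pathway list with an unadjusted p under 0.05, Cyb5r3, 3 substrain genes, and the 5 genes most like Nnt and Nmrk2. The genes, lists and alternatives were chosen with earlier results of these data known. The tests were checked on simulated counts.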

Additional observations from a re-analysis of the deposited data

Results flagged for a closer look

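Of 50 groups of 6 hearts that were searched for a single heart far from the others, 3 held one, where chance gives about 1 in 20 groups. The search used the TMM scale. Got2 was 431 CPM in ac-WT mouse 2, while the rest of that group lay between 202 and 286 CPM. With total counts that heart had 245 CPM of Got2, in a group range of 207 to 245 CPM. Ide was 73.9 CPM in the same heart, against 49.5 to 56.1 CPM in the others of its group. Entpd4 was 7.70 CPM with TMM in ac-CYB5R3-KO mouse 2, while the rest of its group lay between 4.27 and 5.29 CPM. With total counts that heart was also the highest of its group for Entpd4, at 8.67 CPM. None of the 3 is a measurement of the 10 genes of NAD synthesis and redox.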

How the results depend on the processing

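The number of genes with an adjusted p under 0.05 was 18 with edgeR, 437 with DESeq2, 2 with limma-voom, 8 with total counts, 8 with DESeq2 size factors, 35 without a filter, 2 with the replicate block, 7 without ac-WT mice 2 and 3, and 2 to 38 when single hearts were left out. Of the 10 genes, 2 had an unadjusted p under 0.05, against 1 with total counts, 1 with at least 10 counts in every library (which drops Nnt), 1 without ac-WT mice 2 and 3, and 2 to 4 with single hearts left out. The pathway genes with an unadjusted p under 0.05 numbered 11, against 6 without ac-WT mice 2 and 3 and 8 to 16 with single hearts left out. These counts stand beside shares over all genes of 14.6% with edgeR, 11.5% with total counts, 15.3% with at least 10 counts in every library, 7.98% without ac-WT mice 2 and 3 and 10.4% to 18.7% with single hearts left out. The 10 genes' median log2 fold change, -0.19, was 0.10 with total counts and -0.27 to -0.11 with single hearts left out. With total counts the sign turned for Nampt (0.27), Nmnat3 (0.02), Nadk (0.16), Nadk2 (0.06), Sirt1 (0.11) and Sirt3 (0.08). Nampt also turned without a filter (0.02) and without ac-WT mice 2 and 3 (0.05). With single hearts left out Nampt ran from -0.23 to 0.09 and Nmrk2 from -0.18 to 0.84. The cause of these shifts was not tested. The replicate numbers mark different animals, and the labels do not say whether same-numbered hearts share a litter or batch. Same-numbered hearts deviated together with a mean correlation of 0.133 (-0.16 to 0.36), beside -0.0255 for differently numbered hearts, and 3 of 6 correlated best with their own number. With the replicate block 3 of the 10 genes had an unadjusted p under 0.05, beside 14.7% of all genes. Depth limits Nnt, with 9 to 44 counts per heart.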
